A study of Drosophila melanogaster with 15 samples.

Results

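The 8 genes described here, *Desat1*, *Desat2*, *eloF*, *bond*, *Elo68alpha*, *FASN1*, *FASN2* and *FASN3*, encode fatty acid desaturases, elongases and synthases, and they were picked by name from the 17490 genes of the count tables for their place in hydrocarbon and pheromone lipid synthesis. Antennal RNA of 7-day-old Drosophila melanogaster males was sequenced in 5 groups, with 180 antennae of 90 flies in each sample. The single-housed w1118 males (w1118 SH) eclosed and aged alone, and 3 groups of mutant males were kept at 25 to 30 per vial. These were *Or47b1* males, homozygous for the *Or47b1* allele and carrying *Or47b-GAL4* and *UAS-mCD8GFP*, *Or67dGAL4* males, homozygous for a GAL4 insertion in *Or67d* and carrying *UAS-mCD8GFP*, and *fruLexA/fru4-40* males, which lack the male-specific Fruitless protein and carry w+. The group-housed w1118 males (w1118 GH), also at 25 to 30 per vial, carry the mutant white allele without these alleles or transgenes and serve as the common reference. Pheromone-sensing antennal neurons use the olfactory receptors encoded by *Or47b* and *Or67d*, and the comparisons ask how male antennae differ when social contact, a pheromone receptor or male Fruitless is missing. The mutant lines do not share the genetic background of w1118, so allele and background cannot be told apart. There were 3 samples per group except for *fruLexA/fru4-40*, where 2 entered the comparisons and replicate 1, deposited with a quality warning, did not. As the labels do not tie samples to separate cultures, p-values measure the spread between these samples only.

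Fatty acid synthases build saturated chains from acetyl-CoA and malonyl-CoA, desaturases place double bonds in them, and elongases of the endoplasmic reticulum lengthen them. In the oenocytes of the abdomen the very long chains are reduced and shortened to the cuticular hydrocarbons that waterproof the fly and serve as contact pheromones. The ejaculatory bulb uses related enzymes for male pheromones that *Or67d* neurons and gustatory neurons detect. *Desat1*, besides making the double bond of most unsaturated hydrocarbons, is known to act in the perception of pheromones.

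The values are whole-number read counts per gene. The 14 compared libraries held 8570425 to 14908299 counts each, so that 3 counts, taken as the smallest signal, correspond to 0.201 to 0.35 CPM (counts scaled by library size), a floor that covers counting error only. Levels are given in RPKM, that is, reads scaled by exon length and by library size after TMM normalization. A gene is called changed where edgeR's quasi-likelihood test gave a Benjamini-Hochberg adjusted p under 0.05 over the 10358 genes that passed a filter on low counts. *Or47b* had a log2 fold change of -7.43 in *Or47b1* antennae and *Or67d* had -7.00 in *Or67dGAL4* antennae, in each case against w1118 GH. For *fru* in *fruLexA/fru4-40* it was -0.15 and not called (adjusted p = 0.44). Counts per gene do not separate its male-specific exon, so they do not check this genotype. Olfactory neuron markers (*Orco*, *Ir25a*, *elav*, *nSyb*) and odorant-binding protein genes of support cells were abundant in every library. In w1118 GH replicate 2, muscle markers summed to 62.5 RPKM against 10.1 and 29.5 in the other w1118 GH libraries. Eye markers reached 39.6 RPKM in *Or47b1* replicate 3 and 12.9 in *Or67dGAL4* replicate 3, where fat body markers reached 43.2 and 43.0. Results that change without these 3 libraries are given as such. Eye markers also reached 13.04 RPKM in w1118 SH replicate 3 and 19.1 RPKM in *fruLexA/fru4-40* replicate 3, where fat body markers were at 35.4 RPKM, and these libraries were left out only 1 at a time. In *fruLexA/fru4-40* replicate 3 muscle markers summed to 63.8 RPKM and accessory gland markers to 11.5 RPKM, against 15.2 and 0.84 RPKM in replicate 2.

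Of the 8 genes, 7 passed the filter, and *eloF* did not. None of the 7 was called in w1118 SH against w1118 GH, where 0.994% of all tested genes were called. At an unadjusted p under 0.05 the same comparison had 1 of the 7 genes and 1638 of all tested genes, and DESeq2 also called 0 of the 7. In *Or47b1* antennae 2 genes rose and 1 fell, against 20.4% of all tested genes called in either direction. *Or67dGAL4* antennae had 2 that rose and 0 that fell, where 29.5% of all tested genes were called. In *fruLexA/fru4-40* antennae 2 rose and 1 fell, beside 30.8% of all tested genes. The median log2 fold change of the 7 genes was -0.25, -0.01, 0.07 and -0.04 in these comparisons in the order given, beside medians between -0.02 and 0.04 over all tested genes. All 4 comparisons share the w1118 GH samples. The elongase gene *bond* and the synthase gene *FASN3* were the genes that rose in each mutant. In antennae, as in any bulk tissue, fewer cells of a type and less RNA per cell cannot be told apart.

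**Figure D1:**
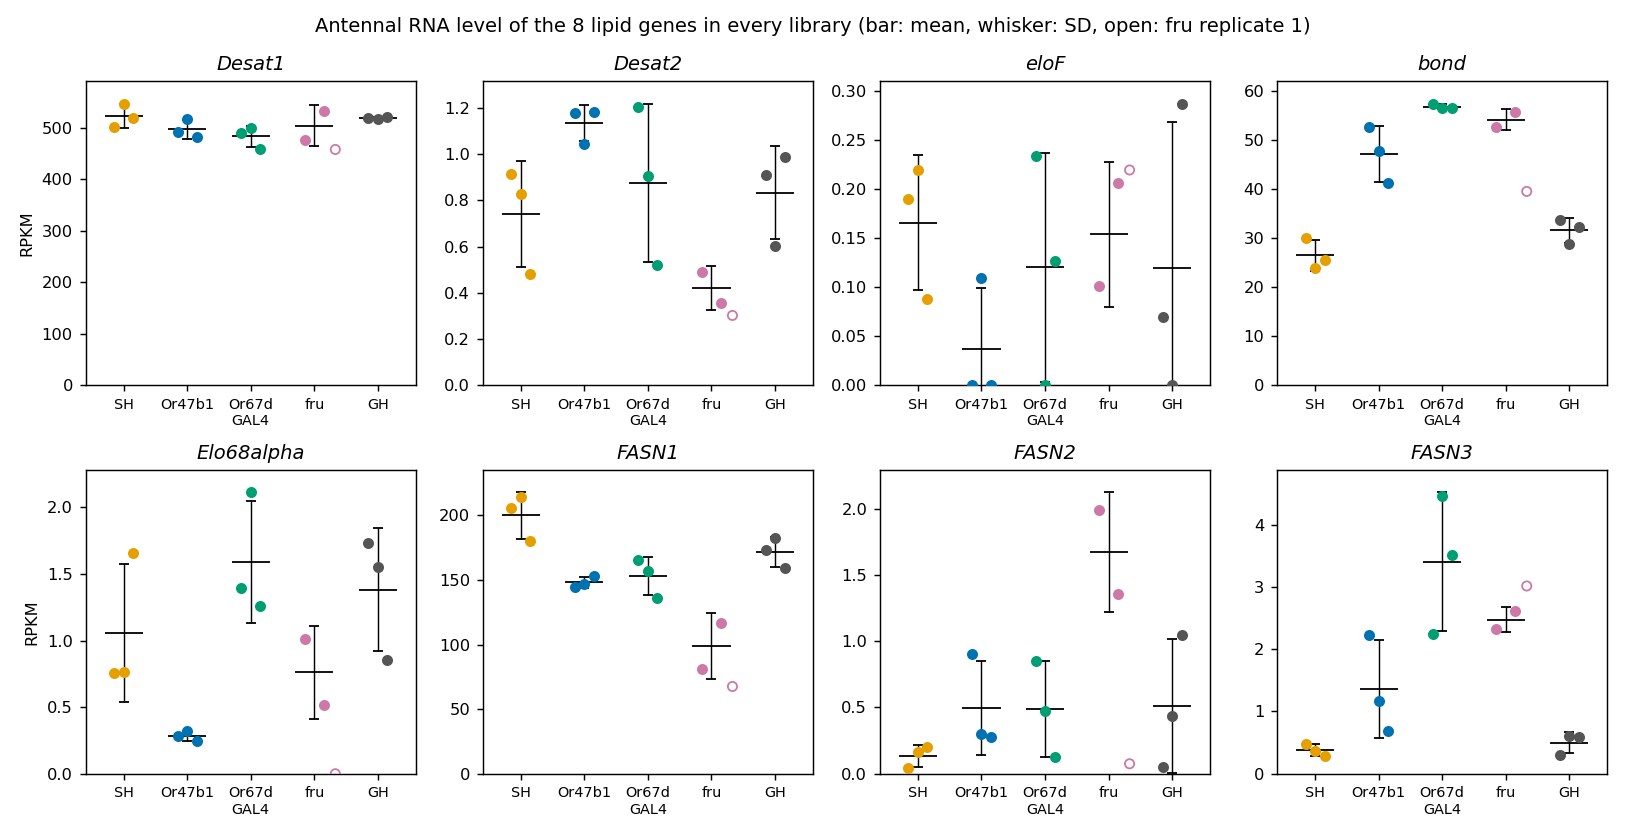
RNA level of each gene in RPKM (linear axes from 0) in every library, by group, with SH for w1118 SH, *fru* for *fruLexA/fru4-40* and GH for w1118 GH. Filled points are compared libraries, bars and whiskers their mean and SD, and the open point is *fruLexA/fru4-40* replicate 1. *Desat1* lies between 460 and 547 RPKM in all compared libraries, whereas *bond* and *FASN3* lie higher in the 3 mutants than in w1118.

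*Desat1* (FBgn0086687), on chromosome 3R from 12439600 to 12447616 of dm6 on the plus strand, was the most abundant of the 8 genes and the least variable. It had 502, 547 and 519 RPKM in w1118 SH antennae, against 519, 517 and 522 RPKM in w1118 GH antennae. In the mutants it had 492, 517 and 482 RPKM (*Or47b1*), 491, 500 and 460 RPKM (*Or67dGAL4*) and 476 and 533 RPKM (*fruLexA/fru4-40*). Its highest and lowest libraries differed 1.19-fold, with 9712 to 19907 counts behind each value. The log2 fold change against w1118 GH was 0.01 for single housing (SE 0.06, adjusted p = 0.96) and -0.06 for *Or47b1* (SE 0.06, adjusted p = 0.54). It was -0.10 for *Or67dGAL4* (SE 0.06, adjusted p = 0.23) and -0.04 for *fruLexA/fru4-40* (SE 0.07, adjusted p = 0.68). The 95% intervals of the 4 ratios reached down to 0.849-fold and up to 1.10-fold, which bounds the size of any difference. None of the 10 contrasts among the 5 groups was called for *Desat1*. The annotation gives it 5 transcripts with 5 start positions and a single coding sequence, and counts per gene do not separate them. No other annotated gene overlaps its exons.

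*Desat2*, which lies 1742 bases from *Desat1* on the same strand (FBgn0043043, 3R, 12436248 to 12437857), encodes the desaturase that gives females of some African and Caribbean populations their distinct hydrocarbons. It was near the limit of detection, with 5 to 19 counts per library and 0.354 to 1.20 RPKM. Counts were 14, 11 and 8 (w1118 SH), 18, 14 and 14 (*Or47b1*), 15, 13 and 6 (*Or67dGAL4*), and 7 and 5 (*fruLexA/fru4-40*), against 19, 9 and 15 in w1118 GH. The *fruLexA/fru4-40* libraries were the lowest group on average, and at 0.488 and 0.354 RPKM both lay below the 3 w1118 GH libraries at 0.908, 0.604 and 0.986 RPKM. The summed counts were 12 in *fruLexA/fru4-40* and 43 in w1118 GH, and the rate in w1118 GH was 2.0-fold that in *fruLexA/fru4-40* (95% interval 1.04 to 4.16, counting error only). In the fit to all genes the log2 fold change was -0.97 (SE 0.46, adjusted p = 0.12), which did not pass. The direct contrast of *fruLexA/fru4-40* with *Or47b1*, where *Desat2* was highest, was called (log2 fold change -1.41, SE 0.46, adjusted p = 0.033), in a contrast in which 31.6% of all tested genes were called. No neighbours in the order of its levels differed past the threshold. Of its 1357 exon bases, 41 overlap *CG17207* on the opposite strand, and in libraries that keep no strand the reads there cannot be told apart.

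The elongase gene *eloF* (FBgn0037762, 3R, 9814161 to 9815158, plus strand), which in females lengthens the dienes of the cuticle, was at or below the floor in every compared library. It had 0 to 3 counts per library and 16 counts over the 14 libraries. By group the sum was 5 counts (w1118 SH), 1 (*Or47b1*), 3 (*Or67dGAL4*) and 3 (*fruLexA/fru4-40*), against 4 in w1118 GH. No difference between groups was detectable at this depth.

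The elongase gene *bond* (FBgn0260942, 3R, 22550680 to 22556494, plus strand) encodes a very-long-chain elongase needed for male fertility and for a male pheromone of the ejaculatory bulb. It had 52.5, 47.8 and 41.1 RPKM in *Or47b1* antennae, 57.4, 56.4 and 56.5 RPKM in *Or67dGAL4* antennae, and 52.6 and 55.5 RPKM in *fruLexA/fru4-40* antennae, against 33.7, 28.7 and 32.2 RPKM in w1118 GH antennae. All 8 mutant libraries lay above all w1118 libraries, since the single-housed males had 29.9, 23.9 and 25.5 RPKM.

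Against w1118 GH, *bond* rose by a log2 fold change of 0.58 in *Or47b1* (SE 0.10, adjusted p = 0.00096). The rise was 0.85 in *Or67dGAL4* (SE 0.10, adjusted p = 4.3e-05) and 0.78 in *fruLexA/fru4-40* (SE 0.11, adjusted p = 0.00025). These are 1.50-fold, 1.80-fold and 1.72-fold differences, and each stayed past the threshold under every alternative tried. In w1118 SH the log2 fold change was -0.25 (SE 0.10), with an unadjusted p of 0.026 that did not pass after adjustment (adjusted p = 0.24). Set against w1118 SH, the 3 mutants were higher by 0.83, 1.10 and 1.03 on the log2 scale, each called, in contrasts where 28.4%, 37.5% and 34.0% of all tested genes were called. In the order *Or67dGAL4*, *fruLexA/fru4-40*, *Or47b1*, w1118 GH and w1118 SH, the step between *Or47b1* and w1118 GH was the one between neighbours that passed. *Or67dGAL4* and *Or47b1*, which are not neighbours in it, differed by 0.27 (SE 0.10, adjusted p = 0.063).

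Several measurements moved with *bond*. The genes listed for support cells were *lush*, *Obp83a*, *Obp83b*, *Obp28a* and *Snmp1*, all of them above the floor. From single-cell data, the paper reports *lush*, *Obp83a*, *Obp83b* and *Obp28a* in olfactory neurons as well, so the list is not specific to support cells. These genes summed to 16772 to 17071 RPKM in *Or47b1*, 15088 to 18837 RPKM in *Or67dGAL4* and 19026 to 19358 RPKM in *fruLexA/fru4-40*, against 12393 to 13837 RPKM in w1118 GH. In w1118 SH, where *bond* was not higher, they summed to 14321 to 16050 RPKM. Within that list, *lush*, an odorant-binding protein of trichoid sensilla, was higher by 0.56, 0.80 and 0.74 on the log2 scale in *Or47b1*, *Or67dGAL4* and *fruLexA/fru4-40*. The list did not move as a whole. *Snmp1*, a sensory neuron membrane protein needed for pheromone detection, was called lower in *Or47b1* (-0.33, adjusted p = 0.0076) and in *Or67dGAL4* (-0.41, adjusted p = 0.0014). *Obp28a* had -0.17 in *Or67dGAL4* (adjusted p = 0.18). The part of these cells in the rise of *bond* was not tested. Of the ejaculatory bulb markers, *Ebp* and *EbpII* had at most 10 and 2 counts in a library, while *EbpIII* was abundant in all libraries, with 1259.9 to 1396.3 RPKM (w1118 SH), 1366.8 to 1458.8 RPKM (*Or47b1*), 1356.8 to 1803.4 RPKM (*Or67dGAL4*) and 1822.8 to 2177.0 RPKM (*fruLexA/fru4-40*), against 1155.6 to 1207.2 RPKM in w1118 GH. *EbpIII* was called higher than in w1118 GH in *Or67dGAL4* (0.37, adjusted p = 0.016) and in *fruLexA/fru4-40* (0.76, adjusted p = 0.00036). It was not called in *Or47b1* (0.27, adjusted p = 0.079) or in w1118 SH (0.15, adjusted p = 0.50).

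Of the 1923 exon bases of *bond*, 184 overlap *asRNA:CR44062* on the opposite strand, a gene with at most 15 counts in a library beside 451 to 1149 counts for *bond*. The annotation gives *bond* 3 transcripts with a single coding sequence. It lies 1847 bases from *sit*, a further elongase gene, and 4.0 Mb from *fru* on the same chromosome.

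**Figure D2:**
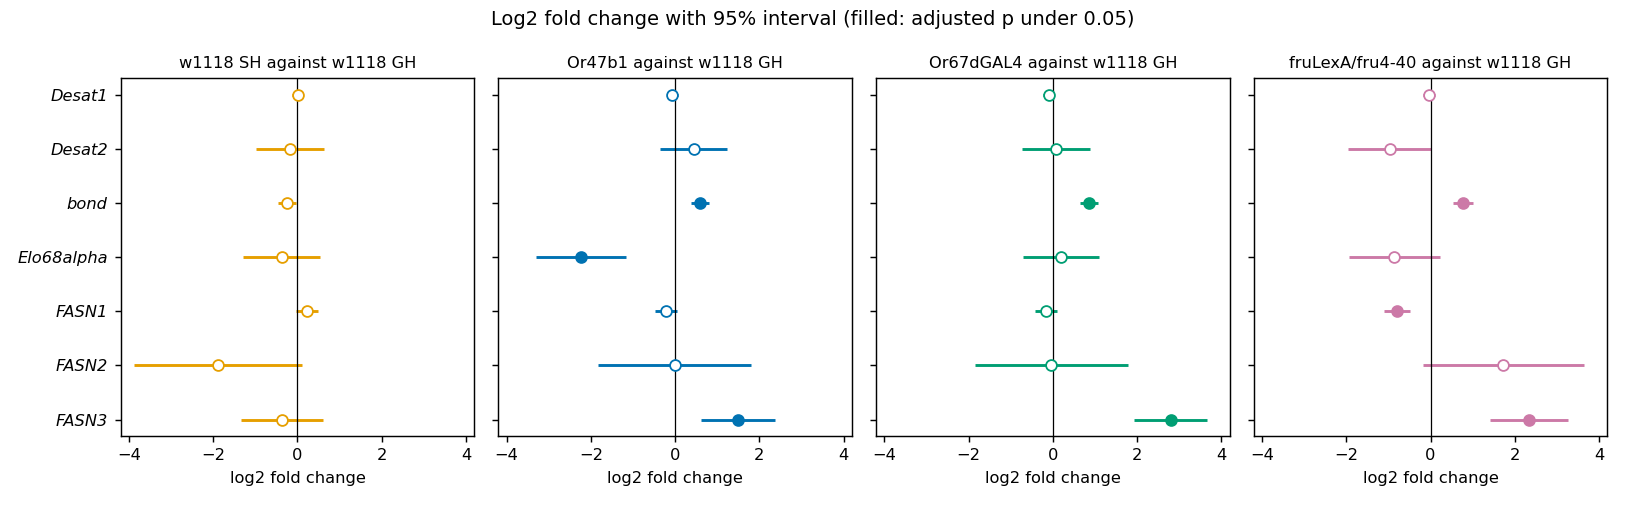
Log2 fold change (horizontal axis) of the 7 tested genes against w1118 GH, with a panel each for single housing and the 3 mutants and with lines for the 95% interval. Filled points have an adjusted p under 0.05. The intervals are narrow for *Desat1*, *bond* and *FASN1* and widest for *FASN2*, and *bond* and *FASN3* lie right of 0 in each mutant.

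*Elo68alpha* (FBgn0052072, 3L, 11101875 to 11103030, minus strand) is an elongase gene of the male reproductive tract that affects the male pheromone cis-vaccenyl acetate. It had 3, 3 and 2 counts in *Or47b1* antennae, against 25, 16 and 9 counts in w1118 GH antennae. The *Or47b1* libraries were the lowest of all, and the groups did not overlap at 0.284, 0.325 and 0.245 RPKM against 1.73, 1.56 and 0.857 RPKM. Summed, these were 8 counts in *Or47b1* and 50 in w1118 GH, so the rate in w1118 GH was 4.96-fold that in *Or47b1* (95% interval 2.34 to 12.1, counting error only). The fitted log2 fold change was -2.23 (SE 0.50, adjusted p = 0.0061). All *Or47b1* values are at or below the floor of 3 counts. With *Or47b1* and w1118 GH alone the gene did not pass the filter on low counts, so it was tested through groups where it was higher. The size of the difference is therefore poorly known. Without the 3 libraries that stand apart it was -2.08 and no longer called (adjusted p = 0.063), and over the 21 alternatives that gave a value the adjusted p ran from 0.0042 to 0.063.

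The other groups had 8, 7 and 19 counts of *Elo68alpha* (w1118 SH), 12, 21 and 10 counts (*Or67dGAL4*) and 10 and 5 counts (*fruLexA/fru4-40*), none called against w1118 GH. *Or67dGAL4* was higher than *Or47b1* by 2.43 on the log2 scale (SE 0.50, adjusted p = 0.0033), in a contrast with 26.8% of all tested genes called. Here too all *Or47b1* values are at or below the floor. The gene was tested through groups where it was higher, *Or67dGAL4* among them, so this call is no separate support. The alternatives were not run on this contrast. Between neighbours in the order *Or67dGAL4*, w1118 GH, w1118 SH, *fruLexA/fru4-40* and *Or47b1* no step passed. *Elo68beta*, a near copy, starts 176 bases away, and how reads shared by such copies were counted can change values this low.

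*FASN1* (FBgn0283427, 2L, 3056598 to 3068177, plus strand), the broadly used fatty acid synthase, made up 94.9% to 99.8% of the summed RPKM of the 3 synthases in each compared library. It had 80.7 and 117 RPKM in *fruLexA/fru4-40* antennae, against 173, 182 and 159 RPKM in w1118 GH antennae. Both *fruLexA/fru4-40* libraries were below every library of the other groups, and they differed 1.45-fold from each other. *FASN1* fell there by 0.80 on the log2 scale (SE 0.14, adjusted p = 0.0011), to 0.576-fold (95% interval 0.468 to 0.708). The value was -0.55 without *fruLexA/fru4-40* replicate 2 and -1.09 without replicate 3, called both times, with an adjusted p of at most 0.021 over all alternatives.

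In the receptor mutants *FASN1* had 145, 147 and 153 RPKM (*Or47b1*) and 165, 157 and 136 RPKM (*Or67dGAL4*), and in w1118 SH 206, 214 and 180 RPKM. Against w1118 GH the log2 fold changes were -0.21 in *Or47b1* (adjusted p = 0.25), -0.17 in *Or67dGAL4* (adjusted p = 0.32) and 0.22 in w1118 SH (adjusted p = 0.40), none called. With *Or47b1* and w1118 GH fitted alone the *Or47b1* value was the same and passed (adjusted p = 0.044), against a range of up to 0.50 over the other alternatives. Since w1118 SH was the highest group, all 3 mutants were called lower against it, by -0.43 in *Or47b1* (adjusted p = 0.017), -0.39 in *Or67dGAL4* (adjusted p = 0.024) and -1.02 in *fruLexA/fru4-40* (adjusted p = 0.00018). *FASN1* in *fruLexA/fru4-40* was also lower than in *Or47b1* (-0.58, adjusted p = 0.0065) and than in *Or67dGAL4* (-0.63, adjusted p = 0.0062), where 24.2% of all tested genes were called. The olfactory neuron markers, all 4 above the floor, summed to 1341 to 1446 RPKM in *fruLexA/fru4-40* and 1750 to 1853 RPKM in w1118 GH. Most of that sum is *Orco*, the olfactory co-receptor (-0.42, adjusted p = 0.0032), and *Ir25a* was also lower (-0.55, adjusted p = 0.00018), whereas the general neuron markers *elav* (0.13, adjusted p = 0.56) and *nSyb* (-0.15, adjusted p = 0.31) were not called. Markers moved also where *FASN1* was not called. In *Or67dGAL4* the list summed to 1507 to 1636 RPKM, with *Orco* (-0.23, adjusted p = 0.036) and *Ir25a* (-0.77, adjusted p = 2.3e-06) called lower. There *elav* was called higher (0.42, adjusted p = 0.040) and *nSyb* was not called (0.16, adjusted p = 0.21). In *Or47b1* *Ir25a* was called lower (-0.35, adjusted p = 0.0017). The part of olfactory neurons in the lower *FASN1* was not tested.

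*FASN2* (FBgn0042627, 2L, 3043947 to 3056143, plus strand) ends 454 bases before *FASN1* and encodes a synthase of oenocytes used for methyl-branched hydrocarbons. Its level had the widest range of the 7 tested genes over the 14 compared libraries, 45.9-fold, with 4 to 172 counts. Counts were 4, 13 and 20 (w1118 SH), 83, 24 and 20 (*Or47b1*), 64, 41 and 9 (*Or67dGAL4*), and 172 and 115 (*fruLexA/fru4-40*), against 6, 39 and 96 in w1118 GH. In w1118 GH alone the level differed 22.0-fold between libraries, and the *fruLexA/fru4-40* libraries were above the rest at 1.99 and 1.35 RPKM. The log2 fold change in *fruLexA/fru4-40* against w1118 GH was 1.73 (SE 0.88, adjusted p = 0.15), which did not pass. Leaving out w1118 GH replicate 3 gave 2.85 and a call (adjusted p = 0.048), with adjusted p up to 0.47 over the other alternatives. In w1118 SH the value was -1.88 (SE 0.92, adjusted p = 0.35), and in *Or47b1* and *Or67dGAL4* it was -0.01 and -0.04 (SE 0.84 each). The contrast of *fruLexA/fru4-40* with w1118 SH was called (3.61, SE 0.97, adjusted p = 0.013).

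*Cyp4g1*, the oenocyte cytochrome P450 that makes hydrocarbons from aldehydes, rose and dropped with *FASN2* from library to library. *Cyp4g1* had 0, 13 and 258 counts (w1118 SH), 2668, 769 and 246 (*Or47b1*), 1859, 974 and 119 (*Or67dGAL4*), and 5061 and 3598 (*fruLexA/fru4-40*), against 21, 610 and 1912 in w1118 GH. Over the 14 libraries, Pearson's r between the log2 CPM of the 2 genes was 0.93. This is a description only, since both values of each pair come from the same library. The order of the libraries was the same for both genes in each group. *Cyp4g1* itself was not called in *fruLexA/fru4-40* against w1118 GH (log2 fold change 2.45, SE 1.32, adjusted p = 0.18). The oenocyte marker list held 2 of 3 genes above the floor and summed to 157 to 214 RPKM in *fruLexA/fru4-40* and 3.11 to 77.8 RPKM in w1118 GH. Most of that sum is *Cyp4g1* again, at 210 and 152 RPKM in *fruLexA/fru4-40*. The other detected marker, *FarO*, had 3.71 and 4.86 RPKM there (0.58, adjusted p = 0.049). *FarO* was highest in *Or47b1* (1.07, adjusted p = 0.0011), where *FASN2* was at -0.01. The remaining gene, *Fad2* (*DesatF*), the desaturase of female oenocytes, had at most 2 counts in any library. The part of oenocyte RNA in the *FASN2* level was not tested.

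**Figure D3:**
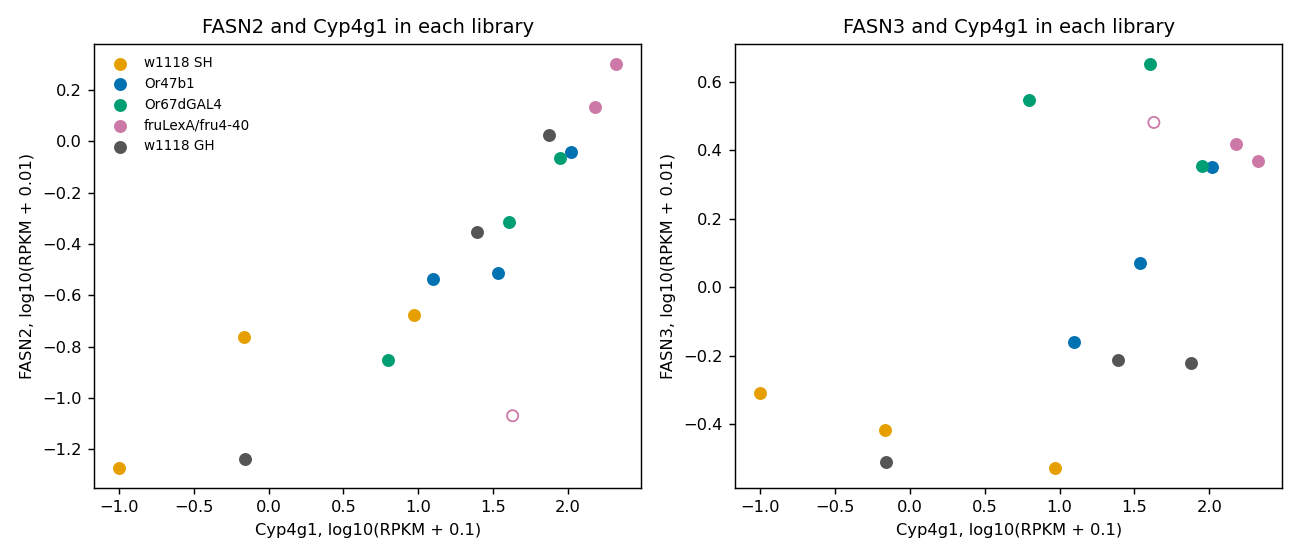
*FASN2* (left) and *FASN3* (right) against *Cyp4g1* in each library, as log10 of RPKM plus 0.01 (vertical) and plus 0.1 (horizontal). Points are coloured by group, and the open point is *fruLexA/fru4-40* replicate 1. *FASN2* follows *Cyp4g1* in the 14 compared libraries (r = 0.93 on log2 CPM), whereas *Or67dGAL4* replicate 3 has 3.50 RPKM of *FASN3* with 6.15 RPKM of *Cyp4g1*.

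*FASN3* (FBgn0040001, 3L, 25752859 to 25762779, minus strand), a synthase gene of oenocytes needed against desiccation, was matched by its position because its identifier has changed between annotations. It had 2.23, 1.17 and 0.682 RPKM in *Or47b1* antennae, 2.24, 4.46 and 3.50 RPKM in *Or67dGAL4* antennae, and 2.33 and 2.61 RPKM in *fruLexA/fru4-40* antennae, against 0.298, 0.604 and 0.591 RPKM in w1118 GH antennae. The w1118 SH antennae, at 0.479, 0.373 and 0.287 RPKM, overlapped with w1118 GH, and every mutant library was above both. The closest pair was *Or47b1* replicate 3 and w1118 GH replicate 2.

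The rise of *FASN3* was largest in *Or67dGAL4*, with a log2 fold change of 2.80 (SE 0.40, adjusted p = 0.00021), a 6.96-fold difference (95% interval 3.82 to 12.7). In *fruLexA/fru4-40* it was 2.33 (SE 0.43, adjusted p = 0.0015), or 5.05-fold (95% interval 2.66 to 9.58). In *Or47b1* it was 1.49 (SE 0.41, adjusted p = 0.020), or 2.81-fold (95% interval 1.53 to 5.17). The first 2 calls held under every alternative. Of the 2 gut markers only *Amy-p* was above the floor, and it was called higher in *Or67dGAL4* (3.07, adjusted p = 0.0085). The other, *lambdaTry*, had at most 3 counts in any library. The 2 genes summed to 7.95 to 50.8 RPKM in *Or67dGAL4*, against 1.50 to 6.97 RPKM in w1118 GH, most of it *Amy-p*. The fat body gene *Lsp2* had 1, 2 and 15 counts in *Or67dGAL4*, against 1, 0 and 0 counts in w1118 GH (adjusted p = 0.040), so its value rests on replicate 3. The other fat body markers tested, *Yp1*, *Yp2*, *Yp3* and *apolpp*, were not called there (adjusted p = 0.25, 0.41, 0.14 and 0.40). *Fbp2* had at most 1 count. The fat body list summed to 9.96, 15.9 and 43.0 RPKM in *Or67dGAL4*, against 11.4, 15.8 and 16.0 RPKM in w1118 GH. The part of these tissues in the rise of *FASN3* was not tested. The *Or47b1* call was lost without *Or47b1* replicate 1 (0.92, adjusted p = 0.12), without w1118 GH replicate 1 (1.21, adjusted p = 0.081) and with *Or47b1* and w1118 GH fitted alone (adjusted p = 0.0504), and the lowest adjusted p over the alternatives was 0.0052. *Or67dGAL4* was higher than *Or47b1* by 1.31 (SE 0.37, adjusted p = 0.019), and *fruLexA/fru4-40* did not differ from either past the threshold. In w1118 SH the value was -0.37 (SE 0.45, adjusted p = 0.76).

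*FASN3* did not follow *Cyp4g1* in the way *FASN2* did. Over the 14 libraries the Pearson r with *Cyp4g1* was 0.62 for *FASN3* and 0.93 for *FASN2*. *Or67dGAL4* replicate 3 had 220 counts of *FASN3* with 119 of *Cyp4g1*, and w1118 GH replicate 3 had 49 counts of *FASN3* with 1912 of *Cyp4g1*. Within *Or47b1* both genes were highest in replicate 1 and lowest in replicate 3. The gene of the 7 closest to *FASN3* was *bond* (r = 0.93), and both share the step between mutants and w1118. As a share of summed synthase RPKM, *FASN3* ran from 0.444% to 2.75% in the 8 mutant libraries and from 0.159% to 0.367% in the 6 w1118 libraries.

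Among all tested genes, those most like *bond* over the 14 libraries were *tsl* (Pearson r = 0.966), *CG34232* (0.965) and *CG42238* (0.962). For *FASN3* they were *CR43671* (0.959), the cytochrome P450 gene *Cyp6d5* (0.950) and *CG5162* (0.944). *FASN1* was closest to *toe*, a transcription factor gene (0.956), *CG11178* (0.943) and the growth factor receptor gene *Egfr* (0.938). *FASN2* was closest to *Sgp* (0.956), the elongase gene *CG16904* (0.943) and *CG7910* (0.939). For *Elo68alpha* the genes were *CG32939* (0.954), *lncRNA:CR44178* (0.925) and *CR41506* (0.916). *Desat1*, whose level hardly varied, had *CG15343* (0.881), the importin gene *Kap-alpha1* (0.855) and the cilium gene *BBS1* (0.838). *Desat2* had *mxc* (0.862), *CG31760* (0.851) and *CG31344* (0.834). These correlations were picked as the highest of 10358 and describe shared patterns only.

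The lists of 58 further genes of the pathway, 45 of them tested, fall into 6 roles. In w1118 SH 1 of the 45 rose and 0 fell against w1118 GH, where 0.685% of all tested genes were higher and 0.309% lower. In *Or47b1* 8 rose and 3 fell, beside 10.5% of all tested genes higher and 9.97% lower. *Or67dGAL4* had 10 that rose and 5 that fell, beside 14.4% and 15.1%. In *fruLexA/fru4-40* 17 rose and 1 fell, beside 15.5% and 15.3%. Among these rises are *CG9458* and *CG18609*, which passed the low-count filter only or largely through the *fruLexA/fru4-40* libraries. The median log2 fold change of the 45 was 0.04, 0.10, 0.06 and 0.33 in the same order, beside 0.04 for all tested genes in *fruLexA/fru4-40*.

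Of 6 tested genes for substrate supply and its control, *SCAP*, the escort protein of the lipid regulator SREBP, rose in each mutant. *SCAP* had 30.8, 30.8 and 32.8 RPKM in *Or47b1*, 32.3, 34.6 and 32.8 RPKM in *Or67dGAL4*, and 23.0 and 28.3 RPKM in *fruLexA/fru4-40*, against 12.0, 11.8 and 11.6 RPKM in w1118 GH. Its log2 fold changes were 1.41, 1.49 and 1.12 (SE 0.09, 0.09 and 0.10, adjusted p at most 7.5e-06). In w1118 SH *SCAP* had 11.0, 9.72 and 8.48 RPKM, which lay below w1118 GH but was not called (-0.28, adjusted p = 0.17). *ACC*, acetyl-CoA carboxylase, which makes malonyl-CoA, rose in *Or47b1*, and *AcCoAS*, acetyl-CoA synthetase, was 0.20 lower on the log2 scale in *fruLexA/fru4-40* (adjusted p = 0.042).

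Among 3 tested desaturase genes beside *Desat1* and *Desat2*, *CG9743* rose in *Or47b1* (0.50, SE 0.07, adjusted p = 0.00014) and fell in *Or67dGAL4* (-0.27, SE 0.07, adjusted p = 0.011). *CG15531* fell in *Or67dGAL4*, with 13, 7 and 2 counts against 34, 19 and 44 counts in w1118 GH (-1.74, SE 0.49, adjusted p = 0.017). Of 11 tested elongases beside *bond* and *Elo68alpha*, 4 rose in *fruLexA/fru4-40*, 2 in *Or67dGAL4*, 0 in *Or47b1* and 1 in w1118 SH, and none fell in these 4 comparisons. The gene that rose in w1118 SH was *Elovl7*, with 171, 204 and 209 RPKM against 137, 136 and 125 RPKM in w1118 GH (0.56, SE 0.09, adjusted p = 0.016). *Baldspot*, an elongase of saturated chains and the most abundant elongase, had 293, 392 and 361 RPKM in *Or67dGAL4*, against 209, 234 and 205 RPKM in w1118 GH (0.69, SE 0.10, adjusted p = 0.00019). Some of the elongases that passed in *fruLexA/fru4-40* had few counts. *CG9458* had 19 and 20 counts there and 1, 3 and 6 counts in w1118 GH (2.69, SE 0.95, adjusted p = 0.047). *CG18609* had 36 and 17 counts there and 1, 8 and 7 counts in w1118 GH (2.45, SE 0.87, adjusted p = 0.048). No library of another group had more than 8 counts of *CG9458*, so it passed the low-count filter only through *fruLexA/fru4-40*. *CG18609* reached 17 counts in *Or47b1*, where the libraries summed to 24, and passed largely through *fruLexA/fru4-40*. Their calls are thus no separate support for a rise in *fruLexA/fru4-40*. The elongase genes *CG16904* (2.29, adjusted p = 0.10), *CG6660* (1.39, adjusted p = 0.075) and *CG5326* (-0.16, adjusted p = 0.87) did not pass there.

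**Figure D4:**
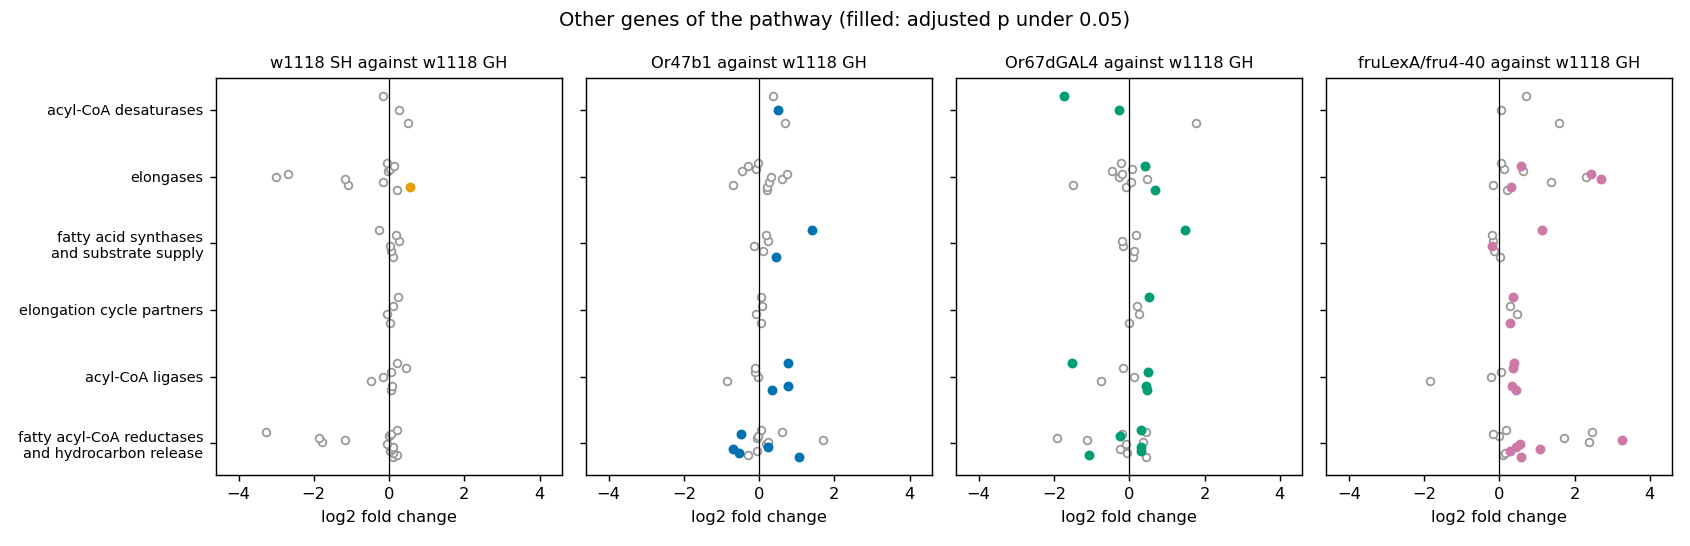
Log2 fold change against w1118 GH (horizontal axis) of each tested gene of the 6 pathway lists (rows), with a panel each for single housing and the 3 mutants. Filled points have an adjusted p under 0.05. Of 45 genes, 1, 11, 15 and 18 are filled in the 4 panels from left to right.

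Of the 4 tested partners of the elongation cycle, *Sc2*, the enoyl-CoA reductase, rose in *Or67dGAL4* (0.52, SE 0.08, adjusted p = 0.00028) and in *fruLexA/fru4-40*, where the ketoacyl-CoA reductase gene *spidey* rose as well. The 7 tested acyl-CoA ligases, which activate free fatty acids, had 3 that rose in *Or47b1*, 3 that rose and 1 that fell in *Or67dGAL4*, and 4 that rose in *fruLexA/fru4-40*. *Acsl* and *bgm* rose in all 3 mutants. For *bgm*, bubblegum, a ligase of very long chains, levels were 352, 363 and 338 RPKM in *Or47b1*, against 203, 218 and 197 RPKM in w1118 GH (0.77, SE 0.09, adjusted p = 3.7e-05). *Fatp3* moved in opposite directions in the receptor mutants. It had 17.6, 15.6 and 17.0 RPKM in *Or47b1* and 4.04, 3.34 and 2.89 RPKM in *Or67dGAL4*, against 9.57, 10.7 and 9.20 RPKM in w1118 GH, which gave 0.77 (SE 0.12, adjusted p = 0.00054) and -1.51 (SE 0.14, adjusted p = 4.9e-06). *Fatp1* rose in *Or67dGAL4* (0.50, SE 0.09, adjusted p = 0.00086).

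The last list holds fatty acyl-CoA reductases and the genes of hydrocarbon release, with 14 tested. In *Or47b1* 2 rose and 3 fell, in *Or67dGAL4* 3 rose and 2 fell, and in *fruLexA/fru4-40* 6 rose and 0 fell. *FarO*, an oenocyte reductase, had 6.75, 5.85 and 5.46 RPKM in *Or47b1*, against 2.51, 3.14 and 2.97 RPKM in w1118 GH (1.07, SE 0.19, adjusted p = 0.0011). The reductase genes *CG8303*, *CG1441* and *CG34342* fell in *Or47b1*, by 0.68, 0.53 and 0.48 on the log2 scale, and of these *CG8303* was higher in *fruLexA/fru4-40* (1.09, SE 0.10, adjusted p = 9.4e-06). In *Or67dGAL4* *wat*, or waterproof, a reductase needed for gas filling of the trachea, had 17.1, 15.9 and 18.2 RPKM, against 32.0, 43.7 and 32.4 RPKM in w1118 GH (-1.08, SE 0.14, adjusted p = 9.5e-05). *CG17560* had 44 and 53 counts in *fruLexA/fru4-40*, against 2, 7 and 8 counts in w1118 GH (3.25, SE 0.98, adjusted p = 0.024). The *fruLexA/fru4-40* libraries that carry these low-count rises are those with the most *Cyp4g1*, and the part of oenocyte RNA in them was not tested.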

How the data were processed

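The deposited values are whole-number counts per gene that the authors obtained with featureCounts and did not normalize. Before counting, reads were cleaned with FASTP and aligned to dm6 by MapSplice2, and duplicates and alignments of low quality or wrong pairing were discarded. Tool versions and the annotation release are not given in the sources used here. Per the labels the libraries were not stranded. Of 17490 genes, 17288 were named by identifier from the Ensembl annotation and 121 by identical position, *FASN3* among them.

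From these counts, edgeR 4.0.16 in R 4.3.3 was fitted to 14 samples in 5 groups (TMM, filterByExpr, quasi-likelihood F test), which left 10358 genes and a common BCV of 0.151. Adjusted p-values follow Benjamini-Hochberg within each of 10 contrasts. RPKM used TMM-scaled libraries of the tested genes and the exon lengths in the tables. Correlations used log2 CPM with a prior count of 2. The ratios of summed counts carry exact 95% binomial intervals. Tables and figures were made with matplotlib 3.10.9, scipy 1.17.1, numpy 2.4.6 and pandas 2.3.3 under Python 3.11.15, and the fit was tested on simulated data.

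The 8 genes and the lists of pathway and marker genes were chosen with earlier results of these data known. All 8 were named whatever their values. Of the pathway lists, the text names per comparison up to 4 called genes in each direction with the largest change and no overlap with w1118 GH. Outside this rule, *ACC*, *spidey*, *Acsl*, *CG6660* and *CG5326* were named after their values were seen. For each tested gene of the 8, the 3 most correlated genes are named. The alternatives were DESeq2 1.42.0, fitting the compared groups alone, scaling by RLE or by total counts, dropping the filter or asking for 10 counts in each sample, a block for the replicate number, use of all 15 samples, a stricter threshold (adjusted p times 4 under 0.01) and leaving out each sample. Leaving out 3 libraries with markers of other tissues was added after the data were seen. Replicate 1 of *fruLexA/fru4-40* (5907543 counts) was left out of the comparisons because of its quality warning. The authors' analyses of exon usage and gene ontology were not used here.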

Additional observations from a re-analysis of the deposited data

Results flagged for a closer look

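The library of *fruLexA/fru4-40* replicate 1, which enters no comparison of the report, held signal of both genes that rose in the mutants. Its *bond* level was 39.5 RPKM, above the highest w1118 GH library (33.7 RPKM) and below the 2 compared *fruLexA/fru4-40* libraries. Its *FASN3* level was 3.01 RPKM, against at most 0.604 RPKM in w1118 GH. With this library in the fit, the log2 fold changes in *fruLexA/fru4-40* were 0.61 for *bond* (adjusted p = 0.0055) and 2.39 for *FASN3* (adjusted p = 0.0012, edgeR). It also had 67.6 RPKM of *FASN1*, below every other library, and 3 counts of *FASN2* beside 474 of *Cyp4g1*. Its cell markers differed from those of the compared *fruLexA/fru4-40* libraries. *elav* was at 72.3 RPKM (22.7 and 21.8 in replicates 2 and 3), *nSyb* at 560 (243 and 217) and *Orco* at 624 (983 and 1110). Eye markers summed to 28.5 RPKM (3.10 and 19.1). The levels in this library may therefore not be comparable with those of the other libraries. Groups of 2 or 3 samples are too small to look for single outlying samples.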

How the results depend on the processing

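Of the 8 calls against w1118 GH among these genes, 6 held under all 9 other settings and all 14 fits without a sample that could give a value. The exceptions were *FASN3* and *Elo68alpha* in *Or47b1*. *Elo68alpha* gave no value with a minimum of 10 counts in every sample, and neither did *Desat2* and *FASN2*. In *Or47b1* it also gave none with the compared groups only. Beyond the values in the report, the following moved, and their cause was not tested. The count of all genes called in w1118 SH was 103, and it was 352 with DESeq2, 13 with the compared groups only, 165 with the replicate block, 16 with all 15 samples, 29 without the 3 libraries and 5 to 215 without a sample, the lowest without w1118 GH replicate 3. With all 15 samples 1219 genes were called in *Or47b1* (2117 before) and 1608 in *Or67dGAL4* (3052 before, 1849 without the 3 libraries). In *fruLexA/fru4-40* 3187 genes were called, and 1465 to 3467 without a sample, the lowest without *fruLexA/fru4-40* replicate 2. At the stricter threshold 1 of the 8 genes, *bond*, was called in *Or47b1*. With total counts only, 901 of 2253 calls in *Or47b1* were higher, against 1084 of 2117 with TMM. DESeq2 had 183 of 352 calls higher in w1118 SH, against 71 of 103.

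Values that were not called changed sign at times. *Desat1* in w1118 SH was -0.0074 with total counts only and -0.010 with a minimum of 10 counts, and -0.025 to 0.038 without a sample. *FASN2* without the 3 libraries was 0.21 in *Or47b1* and 0.35 in *Or67dGAL4*. Without a sample, *FASN2* ran from -0.79 to 1.10 in *Or47b1* and from -0.71 to 1.07 in *Or67dGAL4*, *Desat2* from -0.36 to 0.071 in w1118 SH and from -0.21 to 0.35 in *Or67dGAL4*, *Elo68alpha* in *Or67dGAL4* from -0.064 to 0.43, and *Desat1* in *fruLexA/fru4-40* from -0.13 to 0.045. Where 1 *fruLexA/fru4-40* sample remained, it was assumed to vary like the other groups.

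On average, samples with the same replicate number deviated together little. The mean correlation of their deviations from the group means was 0.041, with 11 of 26 pairs over 0.1, and -0.020 for other pairs. This mean does not exclude shared deviations of single marker lists. Among compared libraries, eye markers were highest in replicate 3 of w1118 SH and of each mutant, but not of w1118 GH. Fat body markers were highest in replicate 3 of each mutant, but not of w1118 SH. In w1118 GH replicate 3 was also the highest, by little (16.0 RPKM against 15.8 RPKM in replicate 2). A replicate block left 3 of the 8 genes called in *fruLexA/fru4-40*, 2 in *Or67dGAL4*, 3 in *Or47b1* and 0 in w1118 SH, as many as without it, beside 3315, 3119, 2147 and 165 of all genes. Depth limits *Desat2*, *eloF* and *Elo68alpha*, for which a few counts decide the value.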
